A study of Bos taurus with 9 samples.

Results

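The cytosolic ribosomal protein genes were examined in bovine uterine glands kept in 3D culture. The members were the rows whose symbol is RPL or RPS followed by a number, together with RPLP0, RPLP1, RPLP2 and RPSA, and without the RPS6K kinases. The rule found 65 of 20679 genes, of which 25 encode proteins of the small subunit, 34 proteins of the large subunit and 6 are paralogs of such genes (RPL3L, RPL7L1, RPL10L, RPL22L1, RPL26L1 and RPS4Y1).

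RNA-seq was carried out on 9 libraries after 5 days of culture, 3 in each of 3 groups. In CYST, gland fragments in Matrigel, a basement membrane extract, received no epidermal growth factor (EGF). In MAT they received EGF in Matrigel, and in MAT+COL they received EGF in Matrigel to which type I collagen had been added. All 3 groups shared a serum-free medium containing insulin, transferrin, selenite, ascorbic acid and albumin, so that insulin was present in the controls too. The fragments were picked by hand from abattoir uteri in the luteal phase, and the age and breed of the cows are not given in the sources used here.

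Each ribosome joins a small subunit, which reads the mRNA, and a large subunit, which forms the peptide bonds. Most of their proteins are needed in equal numbers, and most of their mRNAs start with a terminal oligopyrimidine (TOP) tract through which growth signals acting on mTORC1 and LARP1 control mainly translation rather than mRNA level. The abundance of these mRNAs therefore need not follow the amount of protein made.

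The name rule did not reach the whole ribosome. Of 77 standard symbols for these genes, 59 were present as plain symbols and 18 were not (RPS3A, RPS15A, RPS16, RPS25, RPS27, RPS27A, RPL4, RPL5, RPL7, RPL10, RPL12, RPL17, RPL23A, RPL26, RPL31, RPL36A, RPL39 and RPL41). Positions in RefSeq on the same build, ARS-UCD2.0, placed 17 of these 18 on rows that were unnamed or carried a numbered name. These 17 rows were picked after the values had been seen and are given beside the members, never among them. Ribosomal protein genes have many processed copies in the genome, so the share of reads that a row lost to or gained from such copies is uncertain.

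Total counts ranged from 6568968 in a MAT library to 17948600 in a MAT+COL library. Summed TPM of 7 gland epithelium markers lay between 16671 and 18481 in CYST, between 27636 and 43347 in MAT and between 28229 and 38551 in MAT+COL. This sum was mostly KRT8 and KRT19, whose means were 8314 and 7751 TPM in CYST and 15490 and 17274 TPM in MAT. EPCAM and CDH1 were also higher in MAT without overlap, with means of 419 and 352 TPM in CYST and 690 and 520 TPM in MAT. In contrast, KRT18, FOXA2 and PAX8 overlapped between CYST and MAT and PAX8 had a lower mean in MAT (36.8 TPM, against 45.0 TPM). Summed TPM of 6 stromal markers lay between 1638 and 3546 in CYST, between 596 and 2439 in MAT and between 1533 and 2847 in MAT+COL. The 3 endothelial markers summed to at most 25.1 TPM and the 3 leukocyte markers to at most 11.4 TPM in any library, and no marker of any list was at 0 in every library. The part of these differences in the results was not tested, and in bulk RNA a change in the mixture of cells cannot be told apart from a change per cell.

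Most ribosomal protein genes were abundant transcripts. A mean above 100 TPM was found for 60 of the 65 members, beside 1732 of all 20679 genes. In all 9 libraries 56 members were above 100 TPM, whereas RPL22 had rank 3918 among all genes. RPL8, a large subunit protein at the peptidyl transferase centre, had the highest level at 1785 TPM on average, rank 53 among all genes. It was followed by RPS18 at 1625 TPM and by RPSA, a small subunit protein also known as a laminin receptor precursor, at 1472 TPM. RPLP0, the base of the stalk that recruits elongation factors, and RPS14 came next. The order of the members was much alike in all libraries, since Spearman's rho across 63 members was 0.934 or higher in each of the 36 pairs of libraries (a description across genes, which are not independent).

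Members differed widely in TPM, which divides counts by the length of the row. RPS6 had more counts than RPS18 in every library (5727 against 4207 in CYST replicate 1), yet 202 against 1625 TPM on average. The part of row length in the range was not tested. Large subunit genes ran from 36.5 to 1785 TPM with a median of 372 TPM, and small subunit genes from 67.7 to 1625 TPM with a median of 382 TPM. The 4 detected paralogs lay lower, between 107 and 144 TPM. RPL3L, which is known from striated muscle, and RPL10L, known from testis, had at most 3 counts in every library and were not tested.

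The share of all 65 members in summed TPM was 3.70%, 3.13% and 2.82% in the CYST libraries (replicates 1 to 3). It was 2.85%, 2.37% and 3.48% in MAT and 2.53%, 2.41% and 2.84% in MAT+COL. The groups overlapped, and the means were 3.22% ± 0.443 in CYST, 2.90% ± 0.557 in MAT and 2.59% ± 0.225 in MAT+COL (SD, n = 3). In replicates 1 and 2 the MAT share was 0.771 and 0.759 of the CYST share, whereas in replicate 3 it was 1.23 of it.

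**Figure D1:**
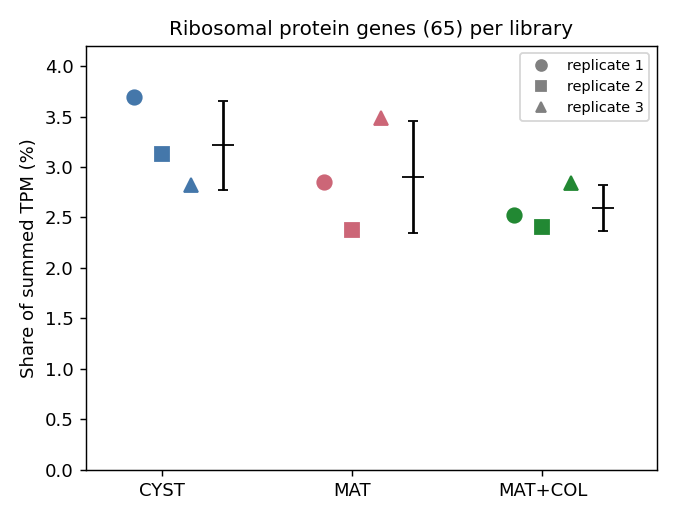
Share of the 65 ribosomal protein genes in summed TPM (%) for each library. Symbols mark the replicate number, and the black bars give the mean ± SD of 3 libraries. MAT replicate 3 lies at 3.48%, above the other MAT libraries at 2.85% and 2.37%.

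The comparison of MAT with CYST asks what EGF changed in Matrigel. No ribosomal protein gene was called among the 63 tested, by edgeR's quasi-likelihood test without pairing at an adjusted p under 0.05. This test called 1.79% of 12074 genes. At an unadjusted p under 0.05 there were 4 members, beside 20.7% of all genes. The study's own criteria, which also ask for a log2 fold change above 1 in size and a minimal TPM above 1 (read here as above 1 in every library), were met by none, and by 1.45% of all genes. The median log2 fold change of the members was -0.14, against 0.01 over all genes, and 52 of 63 lay below 0, against 49.2% of all genes. The median was -0.14 for the small and -0.14 for the large subunit genes.

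That median rested on single libraries. It was -0.34 without MAT replicate 3 and 0.0036 without MAT replicate 2, and also moved to -0.034 without CYST replicate 1 and to -0.058 without MAT replicate 1. In normalised CPM (counts scaled to a common library size) of the same-numbered libraries, 61 of 63 members were lower in MAT in replicate 1, 62 in replicate 2 and 19 in replicate 3. The direction in replicate 3 was thus opposite for most members.

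RPL22L1 and RPS4Y1 had the lowest log2 fold changes. RPL22L1 is a paralog of RPL22, an RNA-binding protein of the large subunit, and lies on chromosome 1 (ARS-UCD2.0, 96572416 to 96576821). Its CPM was 151, 132 and 85.0 in CYST and 75.7, 71.9 and 57.0 in MAT, so every MAT library lay below every CYST library. In TPM the ranges met, as CYST replicate 3 had 116 TPM and MAT replicate 1 had 124 TPM. The log2 fold change was -0.85 (SE 0.25, adjusted p = 0.107 by edgeR), and with the replicate number as a block it was -0.82 (adjusted p = 0.0283 by edgeR).

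RPS4Y1 is listed on chromosome 23 (10549540 to 10567407), not on the Y chromosome, and is a paralog of RPS4X, which encodes a small subunit protein. It had 282, 231 and 263 CPM in CYST and 166, 133 and 145 CPM in MAT, with no overlap. The log2 fold change was -0.81 (SE 0.18, adjusted p = 0.0607 by edgeR), and -0.81 with the replicate block (adjusted p = 0.0219 by edgeR). These were the only 2 members called with the block, which called 10.6% of all genes. DESeq2 without the block called the same 2, again beside 10.6% of all genes. Both block calls were lost without either library of replicate 1 or of replicate 2 (adjusted p from 0.0794 to 0.203 by edgeR) and stayed without either library of replicate 3. Without CYST or MAT replicate 3 the block called 5 members, beside 1789 and 1754 of all genes.

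RPL13, RPL8 and RPS23 followed at -0.50, -0.45 and -0.44 on the log2 scale. RPL8 had 2456, 2122 and 1970 TPM in CYST and 1762, 1468 and 1600 TPM in MAT, so that the groups were apart, but the adjusted p was 0.202 by edgeR. Besides RPL22L1, RPS4Y1 and RPL8, the groups did not overlap in CPM for RPL3 and for RPL7L1, a paralog of RPL7. These 5 members, all lower in MAT, compare with 15% of all genes that were lower without overlap.

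The 4 highest log2 fold changes were those of RPS28, RPS2, RPLP1 and RPLP0, at 0.38, 0.27, 0.17 and 0.13. Without MAT replicate 3 they were 0.19, -0.022, 0.00025 and -0.048. None passed the test, the smallest adjusted p among them being 0.426 (RPS28, edgeR). RPS28 overlaps NDUFA7 and RPS2 overlaps NDUFB10 on the opposite strand, at 43.9 and 110 TPM on average for the partner. Whether counting used strand is not given in the sources used here, so reads of these pairs cannot be told apart. Of the stalk proteins that bind RPLP0, RPLP1 lay above 0 and RPLP2 lay at -0.40 (SE 0.25, adjusted p = 0.413 by edgeR).

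RPL11, which with RPL5 binds MDM2, had a log2 fold change of -0.13 (SE 0.18), and RPS6, the target of the S6 kinases, one of -0.32 (SE 0.21). RPSA lay at -0.10 (SE 0.20). None of these 3 passed the test, and their MAT and CYST libraries overlapped.

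**Figure D2:**
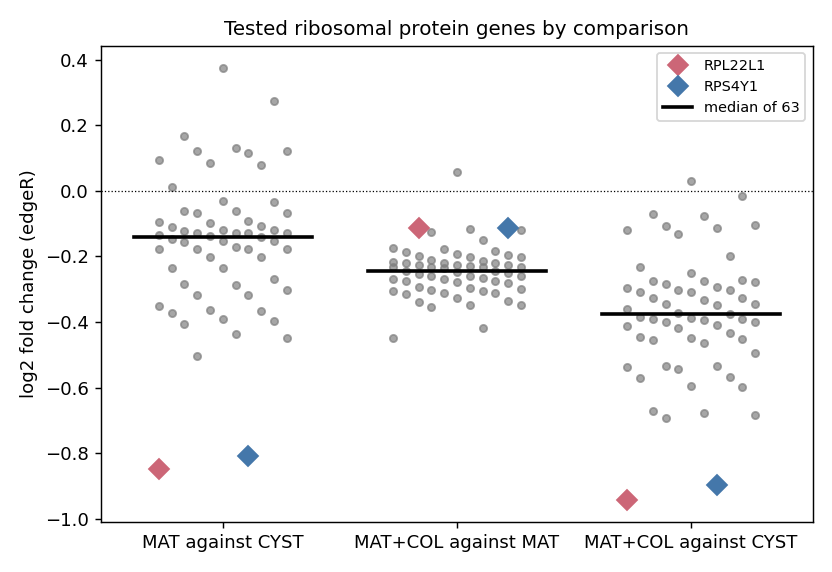
Log2 fold change (edgeR) of the 63 tested ribosomal protein genes in each comparison, with the median as a black line. RPL22L1 and RPS4Y1 lie lowest in both comparisons with CYST, at -0.85 and -0.81 in MAT and at -0.94 and -0.90 in MAT+COL.

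RPL22L1 and RPS4Y1 were also set against their parent genes. The TPM ratio of RPS4Y1 to RPS4X was 0.512, 0.592 and 0.475 in CYST and 0.400, 0.359 and 0.300 in MAT. The ratio was lower in every MAT library, a difference of -0.58 on the log2 scale (p = 0.1 in an exact, two-sided permutation test, which with 3 against 3 cannot give less, and 0.3 adjusted over 6 tests). In MAT+COL it was 0.405, 0.307 and 0.386, again below every CYST library (-0.53 on the log2 scale, exact p = 0.1, adjusted 0.3). RPS4Y1 was thus less abundant per length than RPS4X. In counts it lay above RPS4X in every library, from 2472 against 1417 in CYST replicate 1 to 1829 against 1793 in MAT replicate 3.

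The ratio of RPL22L1 to RPL22 was 5.73, 6.11 and 3.49 in CYST, 3.76, 3.81 and 1.68 in MAT and 3.38, 3.82 and 2.64 in MAT+COL. The groups overlapped, and exact p was 0.3 for MAT and 0.2 for MAT+COL against CYST (adjusted 0.45 and 0.4). RPL22L1 was thus more abundant per length than RPL22 in all 9 libraries. In counts it lay below RPL22 in MAT replicate 3 (719 against 1215) and in MAT+COL replicate 3 (893 against 963). Between MAT+COL and MAT the log2 ratios differed by 0.17 for RPL22L1 and by 0.05 for RPS4Y1 (exact p = 0.8 and 0.7).

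**Figure D3:**
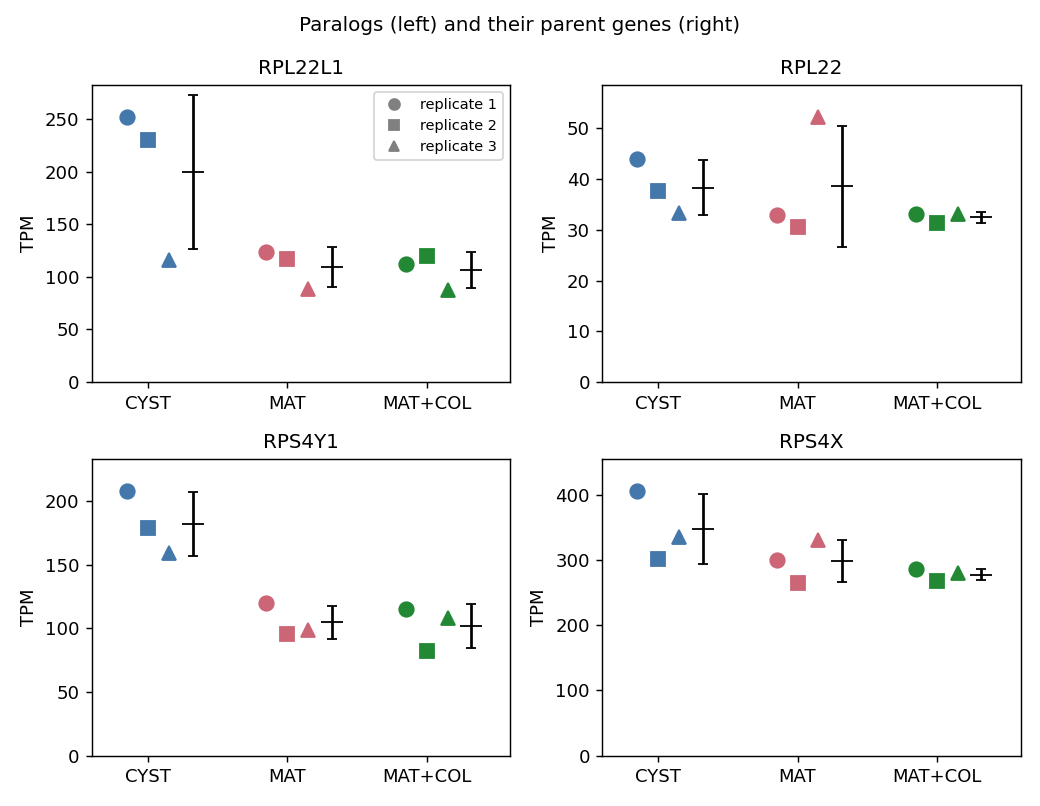
TPM of RPL22L1 and RPS4Y1 and of their parents RPL22 and RPS4X in each library, with mean ± SD of 3 libraries as black bars. RPS4Y1 lies between 159 and 208 TPM in CYST and between 82.2 and 120 TPM in the EGF groups.

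The comparison of MAT+COL with MAT asks what collagen added in the presence of EGF. No member was called, as was no gene at all (0% of 12470 by edgeR), and 51 genes (0.409%) but no member had an unadjusted p under 0.05. DESeq2 and the block called none either. The members lay below 0 in 62 of 63 cases, with a median of -0.24 against -0.00054 over all genes, of which 50.1% lay below 0. However, no member's groups were apart, where 1.55% of all genes were lower without overlap.

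RPL38 was lowest at -0.45 (SE 0.34), and RPL7L1 was the one member above 0, at 0.06 (SE 0.15). RPL38 had 258, 218 and 422 TPM in MAT and 195, 217 and 286 TPM in MAT+COL. MAT replicate 3 stood out. The log2 fold change of RPL38 was -0.069 without it, -0.29 without MAT+COL replicate 1 and -0.66 without MAT+COL replicate 3. Without MAT replicate 3 the median of the members was -0.046 and 48 of 63 lay below 0. The same-numbered libraries gave 62 lower members in replicate 1, 33 in replicate 2 and 60 in replicate 3.

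MAT+COL against CYST measures EGF and collagen together and shares its CYST libraries with the first comparison. Without the block no member was called by edgeR, where 1.49% of 12509 genes were. Of 63 members, 18 had an unadjusted p under 0.05, against 21.7% of all genes. The median of the members was -0.38 and that of all genes 0.04, and 62 of 63 lay below 0, against 47% of all genes. In 27 members the MAT+COL libraries lay below all CYST libraries, against 14.4% of all genes.

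RPS4Y1 had a log2 fold change of -0.90 (SE 0.18, adjusted p = 0.0584) and RPL22L1 one of -0.94 (SE 0.24, adjusted p = 0.0818), both by edgeR. With the replicate block both were called (adjusted p = 0.0334 and 0.0468 by edgeR), where 5.26% of all genes were. These calls too were lost without either library of replicate 1 or of replicate 2, with adjusted p from 0.182 to 0.251 by edgeR. Conversely, the block called 19 members without CYST replicate 3 and 18 without MAT+COL replicate 3, while the calls over all genes rose from 658 to 2399 and 2489. DESeq2 called 7 members, among them these 2, RPS23, RPL8, RPL13 and RPL29, beside 12% of all genes. RPS2 was the one member above 0, at 0.03 (SE 0.25).

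When libraries were scaled to the members themselves, a setting added after the data were seen, no member was called in any comparison. This scaling sets the median of the members near 0, so it cannot show a shift of the family as a whole. All genes were then called at 1.21% in MAT against CYST, 0% in MAT+COL against MAT and 2.89% in MAT+COL against CYST.

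Members that moved with the rest of the family and members that did not were told apart by correlation over the 9 libraries, as a description. For each member, Pearson's r of log2 CPM with the mean of the other members had a median of 0.928, and 53 of 63 members exceeded 0.8. Among all other genes the median r with the mean of the members was -0.013, and 2.53% exceeded 0.8. All points share the same 9 libraries and their scaling. The most typical members were RPL19 (0.994), RPS18 (0.991) and RPS24 (0.984).

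The least typical members were RPL22L1 (0.26), RPL7L1 (0.42), RPS28 (0.63) and RPS4Y1 (0.63). Of these 4, RPS28 alone is not a paralog. Of the 10 non-members most alike, 6 were further ribosomal protein rows. These were the numbered copies RPS15A_2 (0.987) and RPS15A_3 (0.960) and the unnamed rows placed at RPS16 (0.982), RPL26 (0.974), RPS27A (0.970) and RPL36A (0.961). The others included the splicing factor SFPQ (0.978), the uridylyltransferase TUT1 (0.962), and EEF1D (0.961), a subunit of the elongation factor that recharges EEF1A.

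**Figure D4:**
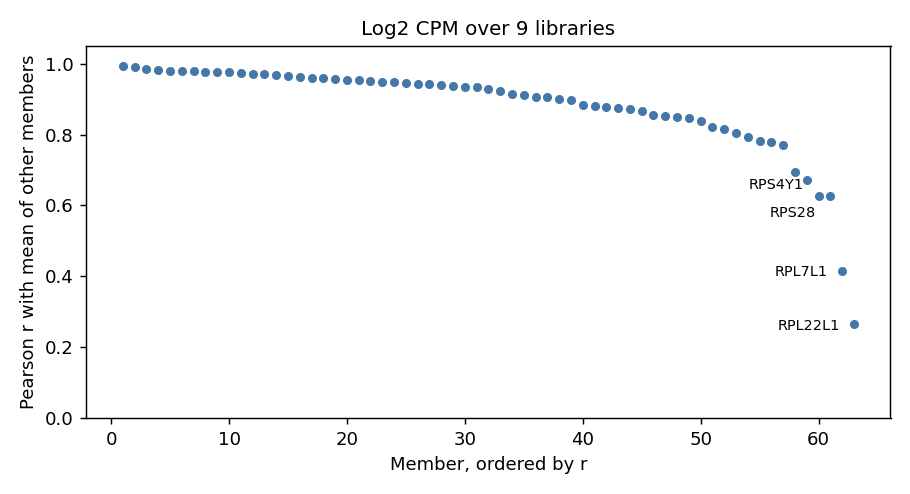
Pearson's r of log2 CPM between each of the 63 members and the mean of the others over 9 libraries, in descending order. Most members lie above 0.8, and RPL22L1 (0.26) and RPL7L1 (0.42) lie lowest.

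The spread between libraries of a group was also compared. The median coefficient of variation of the members was 13.9% in CYST, 21.2% in MAT and 9.68% in MAT+COL. In the 1672 other genes above 100 TPM it was 17.1%, 17.0% and 15.8%.

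Ribosomal protein genes outside the name rule gave a like picture. Of the 17 rows found by position, none was called in any comparison by edgeR, and their median log2 fold change was -0.07 in MAT and -0.38 in MAT+COL against CYST. RPL5 lay at -0.52 (SE 0.26) and RPS27A, a ubiquitin fusion, at -0.23 (SE 0.22) in MAT against CYST. The row at RPS25 was the most abundant of them, from 2072 to 2980 TPM.

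FAU encodes a ribosomal protein fused to a ubiquitin-like protein, and RACK1 is a scaffold on the small subunit. FAU had 643, 553 and 479 TPM in CYST, 410, 325 and 384 TPM in MAT and 353, 297 and 362 TPM in MAT+COL. Both EGF groups lay below CYST without overlap. Its log2 fold change was -0.59 (SE 0.18, adjusted p = 0.113) in MAT and -0.78 (SE 0.17, adjusted p = 0.0627) in MAT+COL against CYST by edgeR, and the block called it in the latter (adjusted p = 0.0459 by edgeR). RACK1 lay at -0.60 and -0.80 and was not called.

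Lists of other genes of translation were read beside the members. Together they hold 151 tested genes, of which 3 fell in MAT against CYST and 3 in MAT+COL against CYST by edgeR, beside 1.79% and 1.49% of all genes tested, so that the count was near the background in both. In MAT against CYST they were EEF1E1, a scaffold of the tRNA synthetase complex, at -1.24 (SE 0.18, adjusted p = 0.0285), LTV1, a small subunit assembly factor, at -1.15 (SE 0.20, adjusted p = 0.0414), and MRPL15 of the mitochondrial ribosome, at -1.11 (SE 0.21, adjusted p = 0.0462). In MAT+COL they were EEF1E1 at -1.30 (adjusted p = 0.0492), BCCIP, from the list of ribosomal protein chaperones, at -0.94 (adjusted p = 0.0473), and MRPL48 at -1.11 (adjusted p = 0.0439), by edgeR.

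By list, 1 of 73 mitochondrial ribosomal protein genes, 1 of 11 chaperone and assembly genes and 1 of 12 genes of the elongation and release list fell in MAT against CYST, where 1.79% of all genes were called. The last is EEF1E1, so without the block no elongation or release factor proper was called. With the block the release factor ETF1 was called too, lower in MAT. None of 32 initiation factor genes, 19 TOP companions or 15 genes of the mTORC1 and LARP1 list was called. The mitochondrial ribosomal protein genes had a median of -0.40, and 65 of 73 lay below 0, beside 52 of 63 cytosolic members. With the block, 17 of the 151 fell in MAT against CYST and 10 in MAT+COL against CYST, near the 10.6% and 5.26% of all genes called with it, among them EIF4A1, the helicase of initiation, and EIF2B1 in both. Without 1 library, the count ranged from 0 to 4 in MAT against CYST and was 0 in each case in MAT+COL against CYST.

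Regulators of TOP mRNAs and further TOP mRNAs did not pass the test. In MAT against CYST the log2 fold change was -0.18 (SE 0.22) for MYC, -0.09 (SE 0.37) for MTOR, 0.12 (SE 0.38) for LARP1, 0.30 (SE 0.22) for EIF4EBP1 and 0.04 (SE 0.17) for RPS6KB1. The TOP mRNAs EEF1A1, EEF2, PABPC1 and TPT1 lay at 0.34, 0.06, 0.21 and 0.44. None of these 9 genes was called in any comparison by edgeR.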

How the data were processed

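Glands were cultured and sequenced (SMART-Seq, paired-end) by the authors, who mapped reads to ARS-UCD2.0 in CLC Genomics Workbench. The authors deposited whole-number counts per gene and TPM (scaled to a fixed sum and corrected for length) for 9 libraries, and 0 per-sample columns were left unused. The annotation release and the use of strand are not given in the sources used here. Members, lists and tests were chosen with earlier results of these data known. Counts were tested over all genes with edgeR 4.0.16 (R 4.3.3; glmQLFit, glmQLFTest, TMM, filterByExpr with a minimum count of 10, Benjamini-Hochberg, adjusted p under 0.05), 6 libraries per comparison, without a block. The standard error is the log2 fold change divided by the root of F. Paralog ratios, log2 of TPM + 0.1, were compared by exact permutation (scipy 1.17.1). The code was tested on simulated data.

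Genes named are the 5 highest and 5 lowest log2 fold changes in MAT against CYST, the 5 highest levels, members under 1 TPM, fixed genes of the stalk, the ubiquitin fusions and the mTORC1 axis, paralog pairs, the 3 highest and lowest correlations, and called genes. Others (RPL3, RPL7L1, RPL38, RACK1, EIF4A1, EIF2B1, SFPQ, TUT1, EEF1D and the genes called by DESeq2) were chosen after their values were seen. Some genes that the rule names are not reported here.

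Same-numbered libraries deviated together, with r of deviations from the group means over genes above 0.1 in each case. This r was 0.310, 0.407 and 0.377 for MAT and CYST and 0.465, 0.593 and 0.673 for MAT+COL and MAT. For MAT+COL and CYST it was 0.293, 0.361 and 0.360. The numbers were therefore read as possible pairs. The main test left this pairing out, and the replicate block was run as an alternative only. The labels do not say what a number marks. The paper describes the clustering of the MAT and MAT+COL libraries as following individuals, so the numbers may mark animals. If the 3 libraries of a group do not come from different animals, p-values measure technical spread only. Alternatives were DESeq2 1.42.0, limma 3.58.1 on log2(TPM + 1) and log2(TPM + 0.1), other scalings, no filter, the likelihood ratio test, all 9 libraries, a replicate block and leaving out each library. Scaling to the members and the block combined with other settings were added after seeing the data.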

Additional observations from a re-analysis of the deposited data

How the results depend on the processing

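Each group had 3 libraries, and depths ran from 6568968 to 17948600 counts. The within-group SD of the mean log2 CPM of the members was 0.245, without a block. Small shifts of the family may have been missed, which was not tested. The count of called members, 0 in each comparison, was 2 with DESeq2, 1 with the likelihood ratio test and 1 with all 9 libraries in MAT against CYST, and 7, 2 and 2 in MAT+COL against CYST. All these members were lower. Over all genes the same settings called 1278, 957 and 580 in MAT against CYST and 1500, 1004 and 601 in MAT+COL against CYST. The count of called members stayed 0 with the other scalings, without the filter, with limma, with the study's criteria and without any 1 library. Scaled to the members themselves, which sets their median near 0 and that of all genes to 0.21, 0.21 and 0.43, no member was called in any comparison. These settings were added after seeing the data, as were the block with total counts or DESeq2.

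The replicate block gave 2 called members in each comparison with CYST, beside 1277 of 12074 and 658 of 12509 genes tested. With total counts it gave 2 and 1, beside 1063 and 552 of all genes. With DESeq2 it gave 2 and 10, beside 1979 and 1912 of all genes. Leaving out 1 library with the block gave 0 to 5 called members in MAT against CYST and 0 to 19 in MAT+COL against CYST, the highest counts (5 and 5, and 19 and 18) being those without a library of replicate 3. In MAT+COL against MAT it gave 0. With all libraries of a comparison kept, edgeR's block changed the call of no named member but RPL22L1 and RPS4Y1. Paired permutation of the paralog ratios cannot go below p = 0.25.

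Without 1 library, the median of the members ranged from -0.34 to 0.0036 in MAT against CYST, from -0.36 to -0.046 in MAT+COL against MAT and from -0.49 to -0.30 in MAT+COL against CYST. The share in TPM ranged from 2.98% to 3.41% in CYST, from 2.61% to 3.17% in MAT and from 2.47% to 2.69% in MAT+COL. From counts in place of TPM it was 1.41%, 1.23% and 1.08%. The log2 ratios in MAT+COL against MAT ranged from -0.22 to 0.37 for RPL22L1 and from -0.059 to 0.17 for RPS4Y1.

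The genes of the other translation lists called in MAT against CYST, 3, became 20 with DESeq2, 1 with total counts, 17 with the block and 30 with both DESeq2 and the block, and 0 to 4 without 1 library. In MAT+COL against CYST they became 39, 0, 10 and 32, and 0 to 0 without 1 library. Over all genes the calls moved alike, from 216 to 1278, 177, 1277 and 1979 and from 186 to 1500, 128, 658 and 1912. Without 1 library the log2 fold change ranged in MAT against CYST from -0.022 to 0.51 for RPS2 and from -0.048 to 0.31 for RPLP0. In MAT+COL against MAT it ranged from -0.20 to 0.017 for RPS4Y1 and from -0.020 to 0.17 for RPL7L1, and in MAT+COL against CYST from -0.22 to 0.22 for RPS2. The cause of these changes was not tested.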
